A study of Homo sapiens with 6 samples.

Results

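The RNAs described here are the copies of 3 small noncoding RNA families in MDA-MB-231 cells: 7SL RNA, 7SK RNA and the Y RNAs. They were chosen by symbol, as the rows of the deposited table whose name begins with RN7SL, with RN7SK or 7SK, or with Y_RNA or RNY and a digit. These rules found 263 of the 15917 rows, of which 203 were 7SL, 56 were 7SK and 4 were Y RNA rows. No symbol occurred in more than 1 row, and all 263 matched a gene of GENCODE release 44 by Ensembl identifier and by name. The study asked how the RNA-binding protein RBMS3 regulates transcripts in breast cancer, and silenced RBMS3 in MDA-MB-231, a mesenchymal-like human breast cancer cell line. The series holds 6 total RNA libraries, with 2 from cells carrying the control hairpin shCTRL (genotype label WT), 2 from cells carrying the hairpin shRBMS3-B3 (RBMS3 KD1) and 2 from cells carrying the hairpin shRBMS3-C3 (RBMS3 KD2). All of them came from the same cell line and were made with a stranded total RNA kit that includes depletion of ribosomal cDNA, a design that keeps RNAs without a poly(A) tail.

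The only measurement used here is the mean normalized count of each row, a single value pooled over libraries. It is a read count scaled for library size and averaged by the authors, and it carries no error and no number of replicates. Values per library were not analysed here, the sequencing depth is unknown, and the effect of RBMS3 knockdown on these RNAs is therefore not reported. All that follows describes how abundant each copy was in these cells as a whole, not how it responded. The mean normalized count of RBMS3 itself was 272, below the median of 364 over all rows, and a pooled value cannot check the knockdown. All 5 markers set for this cell line were high, from 4947 for CAV1, a caveolae coat protein, to 69336 for VIM, the intermediate filament protein of mesenchymal cells. Of 7 genes that mark other breast cancer lines 4 had a row, from CDH1, the epithelial cadherin, at 31.6 to ERBB2, a receptor tyrosine kinase, at 1557, and of 3 genes of other cell types only PECAM1, an endothelial adhesion molecule, had a row, at 69.0.

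7SL RNA is the RNA scaffold of the signal recognition particle, which brings ribosomes that make secreted and membrane proteins to the endoplasmic reticulum. 7SK RNA holds the transcription elongation factor P-TEFb in an inactive particle together with HEXIM and LARP7 proteins. The Y RNAs are short stem-loop RNAs bound by the Ro60 and La proteins, with reported roles in RNA quality control and DNA replication. RNA polymerase III makes all 3 families from a handful of genes, whereas the genome holds many further copies that were inserted by reverse transcription, and primate Alu elements also descend from 7SL RNA by loss of its central part. Because the copies resemble their founding RNAs, a short read may match more than 1 of them, and the level of any single copy depends on how reads were divided.

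The sequences below show the kinds of copy on which the levels turn, and they are reference sequences of GRCh38 at the GENCODE 44 gene positions, with T for U. Positions are counted from 1 at the 5′ end of each RNA. Many copies hold only part of their founding RNA. RN7SL4P (chr3:15738726-15738775, plus strand) and RN7SL752P (chr3:129591541-129591590, plus strand), the highest of the 7SL copies that stop short, are shown over 50 bases, with the last 24 bases of the match to RN7SL1 in capitals and the unrelated bases that follow in lower case.
RN7SL4P: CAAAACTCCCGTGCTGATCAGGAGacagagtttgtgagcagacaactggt
RN7SL752P: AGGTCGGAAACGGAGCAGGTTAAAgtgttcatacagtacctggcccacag

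For 7SK the common form is a copy that stops after about base 239. RN7SK (chr6:52995836-52995885, plus strand) is shown over 50 bases with the 24 bases up to base 239 in capitals. Its 3 highest copies follow, RN7SKP173 (chr20:38761743-38761792, plus strand), RN7SKP180 (chr17:72663887-72663936, minus strand) and RN7SKP255 (chr14:89712727-89712776, plus strand), with the last 24 bases of each match in capitals. The capitals are nearly the same in all 4, and the lower-case bases after them differ from RN7SK and from each other.
RN7SK: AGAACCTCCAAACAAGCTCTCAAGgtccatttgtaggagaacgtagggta
RN7SKP173: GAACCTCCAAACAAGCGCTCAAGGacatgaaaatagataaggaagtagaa
RN7SKP180: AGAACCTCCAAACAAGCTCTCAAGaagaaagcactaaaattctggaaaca
RN7SKP255: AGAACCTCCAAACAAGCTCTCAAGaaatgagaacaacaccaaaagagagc

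The Y RNA rows were RNY1, RNY3, RNY4 and the copy RNY3P1. RNY1 (chr7:148987136-148987248, minus strand, 113 bases) and RNY4 (chr7:148963315-148963410, plus strand, 96 bases) are shown whole. Capitals mark GGTCCGA, part of the stem that Ro60 binds, at bases 5 to 11 of both.
RNY1: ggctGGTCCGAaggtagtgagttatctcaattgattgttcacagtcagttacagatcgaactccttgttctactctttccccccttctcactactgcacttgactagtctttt
RNY4: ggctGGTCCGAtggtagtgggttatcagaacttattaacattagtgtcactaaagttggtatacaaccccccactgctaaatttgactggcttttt

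7SL and 7SK were among the most abundant RNAs of the table, and the Y RNAs were not, as the highest of them, RNY3, ranked 561. RN7SL2, a founding 7SL gene, had the highest mean normalized count of the whole table, 859682. RN7SL1, the reference 7SL gene, ranked 3 with 589572, and RN7SK, the 7SK gene, ranked 4 with 357829. Only RNA5-8SN3, a 5.8S ribosomal RNA gene, stood between them, at 711462. The copy RN7SL4P ranked 10, at 126457, just above PLEC, the gene of the cytoskeletal linker plectin, at 126410. Summed over rows, the 263 members held 10.8% of all mean normalized counts with 1.65% of the rows. By class, 8.98% of the total lay in 7SL, 1.74% in 7SK and 0.0393% in Y RNA rows. These are shares of a sum over listed rows and not of all RNA in the cell, because ribosomal RNA was depleted and a long RNA yields more reads than a short one.

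Within each class the level was carried by very few genes. RN7SL2 held 43.5% of the 7SL sum, and RN7SL2 and RN7SL1 together held 73.3%. RN7SK held 93.2% of the 7SK sum, and RNY3 held 61.2% of the Y RNA sum. The other rows spread over several orders of magnitude. The 7SL rows ran from 27.2 to 859682 with a median of 103, and the 7SK rows ran from 29.0 to 357829 with a median of 151. Most rows of both families were low, since 146 of 203 7SL and 40 of 56 7SK rows stood below the table's median of 364. At the upper end, 34 7SL rows reached a mean normalized count of 1000, 14 reached 10000 and 3 reached 100000, against 6, 1 and 1 of the 7SK rows. The plot of level against rank shows a wide step after RN7SK and after the 3 founding Y RNAs. In 7SL a smaller step follows RN7SL2 and RN7SL1, from 589572 to 126457, and RN7SL3 ranked only 14 in its class.

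**Figure D1:**
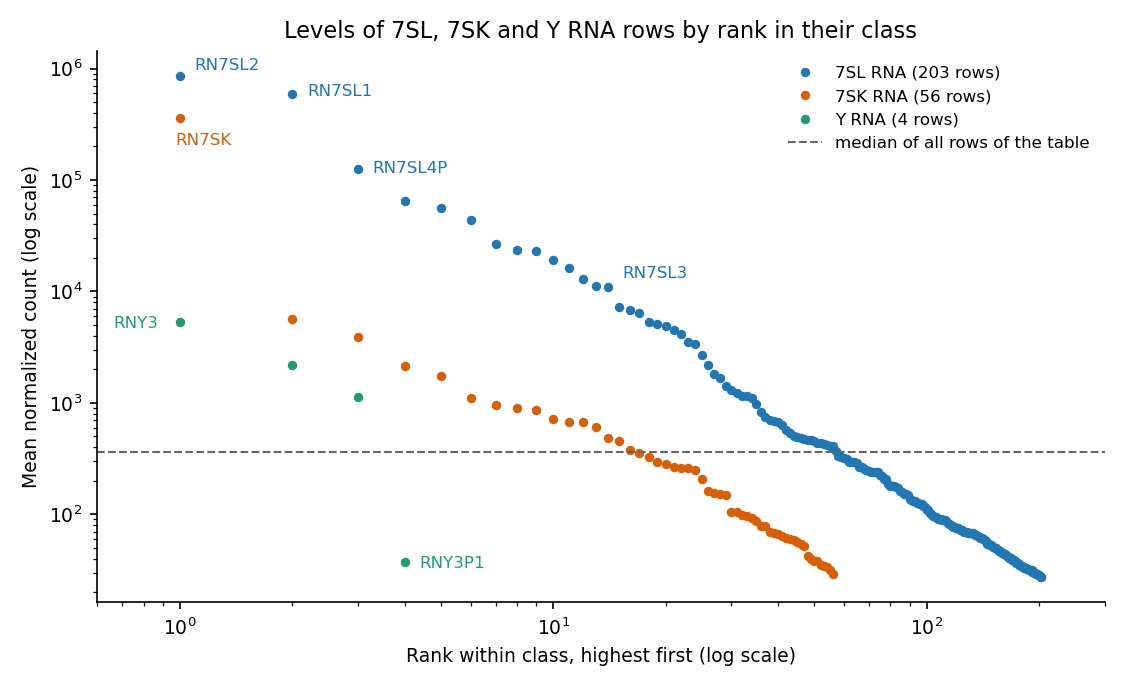
Mean normalized count (vertical axis, log scale) of each 7SL, 7SK and Y RNA row against its rank within its class (horizontal axis, log scale); each point is 1 row, a single pooled value without error, and the dashed line is the median of all rows (364). RN7SK stands far above the next 7SK row at 5670. The 7SL rows fall from 859682 to 27.2 with a smaller step, from RN7SL1 at 589572 to RN7SL4P at 126457.

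The 3 founding 7SL genes lie on chromosome 14 and were far from equal. RN7SL2 (chr14:49862550-49862849, minus strand) was 1.46 times as high as RN7SL1, and RN7SL1 was 53.4 times as high as RN7SL3 (chr14:49853616-49853914, minus strand), which had 11032. RN7SL3 lies 8635 bases from RN7SL2 on the same strand. In sequence all 3 are close. RN7SL2 differs from RN7SL1 by 4 substitutions and 1 gap base, and RN7SL3 by 7 substitutions. Because only these positions separate them, reads from most of their length fit more than 1 gene, and 80.3% of the 31-base windows of RN7SL1 occur exactly in RN7SL2 or RN7SL3. The order of RN7SL1, RN7SL2 and RN7SL3 is therefore uncertain, and a window analysis cannot say which gene made the RNA. RN7SL2 lies in an exon of the long noncoding RNA gene ENSG00000282885 (RP11-596C23.6 in the table) on the same strand, whose own mean normalized count was 33.2. RN7SL1 lies opposite RPS29, a ribosomal protein gene, and RN7SL3 lies outside other annotated genes.

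The 7SL copies named as pseudogenes did not all have low counts. RN7SL4P, at 126457, stood 11.5 times above the founding gene RN7SL3. RN7SL448P had 64798, RN7SL752P 55625 and RN7SL555P 43932. Of the 31-base windows of RN7SL4P 61.1% occur exactly in a founding 7SL RNA, and of those of RN7SL752P 12.1%. Reads of the founding genes can therefore be counted with these copies, and how far that raised them was not tested. The shares were 1.51% for RN7SL448P and 1.62% for RN7SL555P. These 4 copies and others like them add up, and the 200 7SL rows other than the 3 founding genes held 26.2% of the 7SL sum, with a median of 98.1. The lowest rows were RN7SL208P (27.2), RN7SL610P (27.5) and RN7SL693P (28.0), close to 26.7, the lowest level of any row in the table. Of the 680 annotated 7SL copies 477 had no row and were not analysed here. Whether a low level or another reason left them out is not known, and the 203 listed ones are not a sample of all copies.

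The 7SL copies more like RN7SL1 had higher levels. Each copy was aligned to RN7SL1 and its identity was taken within the aligned stretch. The median mean normalized count was 69.8 in the 37 rows below 80% identity, 81.4 in the 87 rows from 80% to 85%, 176 in the 67 rows from 85% to 90% and 13552 in the 12 rows at 90% or above. These 12 include RN7SL1, RN7SL2 and RN7SL3, and the 9 copies among them had a median of 3526. The rise thus lay mostly above 85%, and 7 of the 9 copies at 90% or above reached 1000. Over the 203 rows the rank correlation of identity with level was 0.41, and without RN7SL1, RN7SL2 and RN7SL3 it was 0.38. These points share reads, libraries and an ancestor, so the values are descriptions and have no test. Counting identical bases over the whole of RN7SL1 gave 0.27, and keeping only the 147 rows that cover at least 80% of RN7SL1 gave 0.27. Those 147 rows include RN7SL1, RN7SL2 and RN7SL3 but none of the 9 copies. Over the 110 rows outside genes of the same strand the rank correlation was 0.50.

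The extremes of the identity scale show how wide the spread was. RN7SL5P, the copy most like RN7SL1 after the founding gene itself, had 99.6% identity over bases 1 to 235 and a level of 16072. RN7SL2 had 98.7% identity. At the other end, RN7SL403P (67.0%) had 33.0, RN7SL316P (73.2%) had 368 and RN7SL499P (74.2%) had 89.6. RN7SL555P stood apart from the order by this measure, as it had only 74.6% identity and yet 43932, the highest level below 80% identity. Gap positions count against identity, and RN7SL555P is 339 bases long against 299 for RN7SL1. Counted as identical bases over the whole of RN7SL1 it had 84.6%, above the median of 80.3% over the 203 rows.

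Exact sharing with the founding RNAs ordered the 203 rows about as identity did, with a rank correlation of 0.43 against 0.41. The limit of 10% used below was set after the levels were seen. Of the 203 7SL rows, 108 shared no 31-base window with RN7SL1, RN7SL2 or RN7SL3, and their median was 69.2. Another 86 shared under 10% of their windows and had a median of 181. The 9 rows that shared 10% or more, RN7SL1, RN7SL2 and RN7SL3 among them, ran from 3376 to 859682 with a median of 26465 and held 85.9% of the 7SL sum. Each of those 9 rows therefore stood above the median of either other group, but exact matches also are where reads of the founding RNAs can be assigned to a copy. How far that moved the levels was not tested. RN7SL448P is the highest row outside the 9. It shares 1.51% of its windows with the founding RNAs, and 25.7% with transcripts of any other annotated gene.

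**Figure D2:**
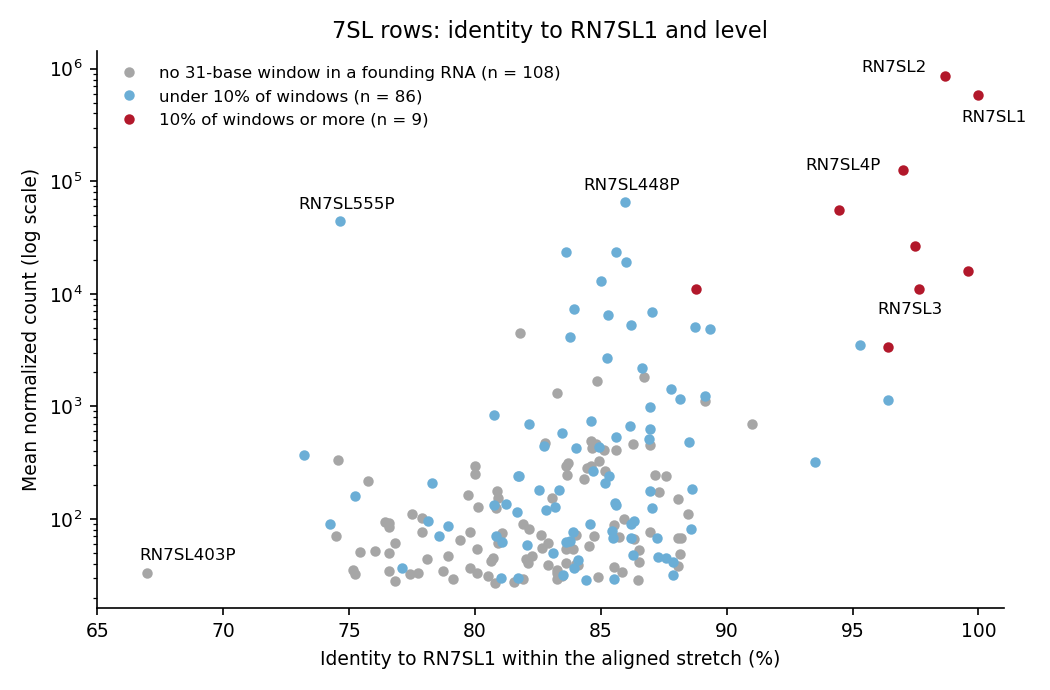
Mean normalized count (vertical axis, log scale) of each of the 203 7SL rows against its identity to RN7SL1 within the aligned stretch in percent (horizontal axis), coloured by the share of its 31-base windows that occur exactly in another founding 7SL RNA. The 9 rows with 10% or more of their windows (red) sit at or above 3376, and RN7SL448P and RN7SL555P stand out among the rest.

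The part of RN7SL1 that a copy holds also went with its level. Most rows, 144 of 203, matched RN7SL1 beyond base 280, and their median was 122. In these copies the 20 bases after the match held a median of 14 A, the A-rich tail typical of sequences inserted by reverse transcription of an RNA. A further 18 rows stopped after base 120 and by base 240, and their median was 2531. They had a median of 5 A in the 20 bases after the match, and 11 of the 18 stopped after base 220. Rows of this group thus stood on the whole higher than the long ones, with 12 of 18 rows at 1000 or above against 22 of 144. The 10 rows that stopped after base 240 and by base 280 also lack the 3′ end, but they had a median of 213 and a highest level of 410. The limits of these groups were set after the levels were seen, so the difference describes these groups and not all copies that lack the 3′ part.

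RN7SL4P, RN7SL752P, RN7SL674P (26465) and RN7SL5P belong to the copies that stop after base 120 and by base 240. Their sequences are also close to the founding RNA, since the 18 rows had a median identity of 89.1% against 84.1% for the 144 long rows. Of the 18, 6 shared 10% or more of their windows with the founding RNAs and had a median of 21268, and the other 12 had a median of 921. The 141 long rows under 10% had a median of 116. The difference between partial and long copies was thus smaller, but in the same direction, in the rows that share under 10% of their windows. These 12 partial rows share up to 9.49%, under a limit set after the levels were seen. Nor were they matched to the long rows in identity, so whether the partial form goes with level apart from likeness was not tested. By place, the 6 partial copies opposite to a gene all reached 1000, with a median of 13602, the 3 outside genes also did, with a median of 3376, and the 9 inside a gene of the same strand had a median of 577. Of the 6 opposite to a gene 4 shared 10% or more of their windows with the founding RNAs, against 1 of the 9, so place and sharing cannot be told apart in these few rows.

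A last kind of 7SL copy was low. In 31 rows the best match to RN7SL1 ended by base 120, at a median of base 94, and their median level was 52.0, with the highest, RN7SL602P, at 295. For 26 of the 31 the rest of the copy held a second match that began between bases 250 and 270 of RN7SL1 and ended at a median of base 298. The central part of 7SL RNA is thus missing from these rows, the layout that Alu elements are known for. Of the 31 rows 29 shared no 31-base window with a founding 7SL RNA, and none reached 1000. However, the 31 rows shared 23.5% to 86.0% of their windows with transcripts of genes outside the 3 families. Reads of those transcripts can be counted with these rows, and how far that moved the levels was not tested. In the reference 65 of the 680 annotated 7SL copies (9.56%) ended by base 120, against 31 of the 203 listed rows (15.3%).

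**Figure D3:**
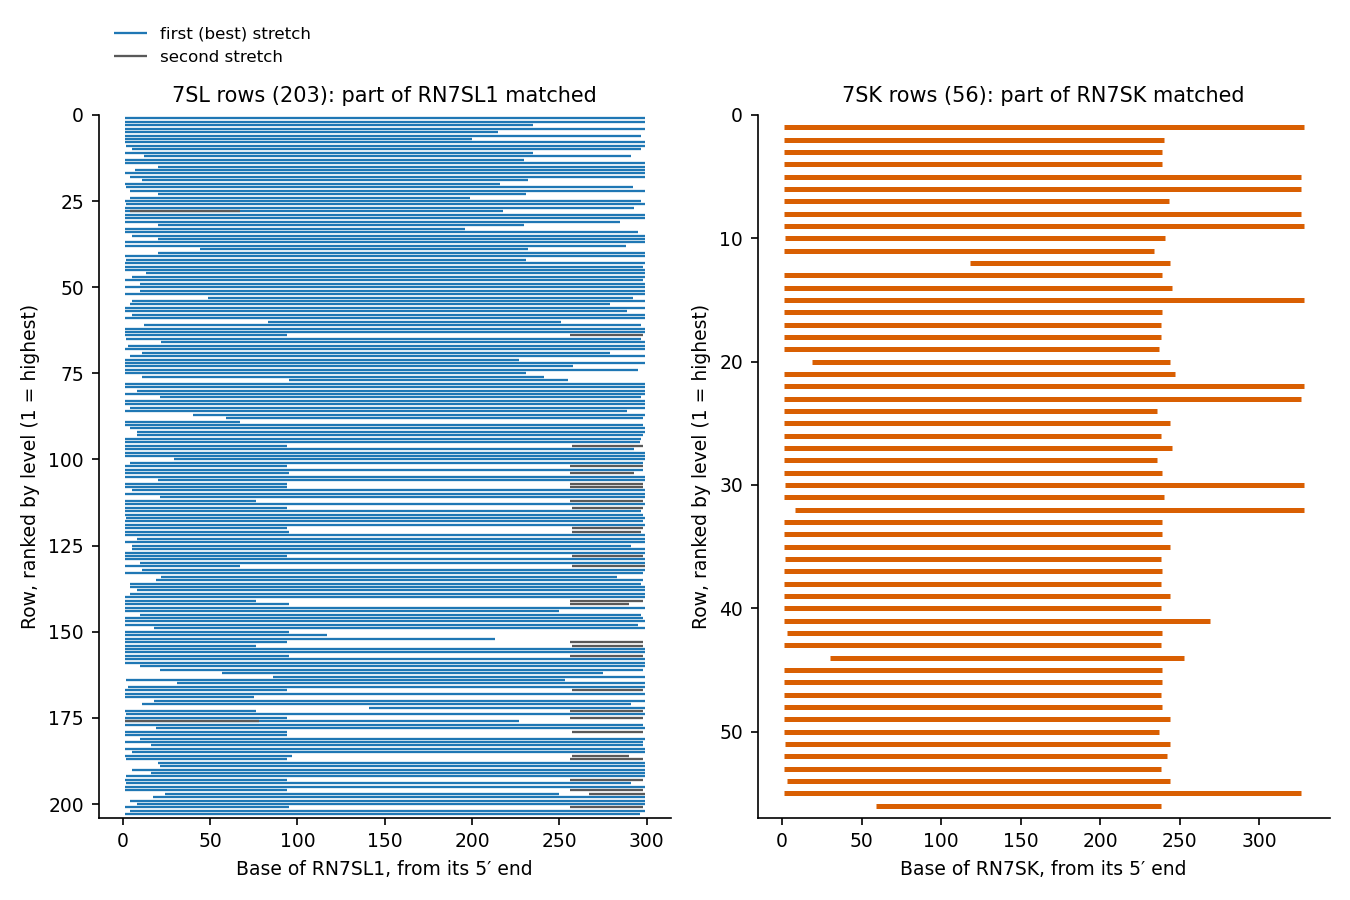
Bases of RN7SL1 (left) and RN7SK (right) matched by each row, with rows ordered from the highest mean normalized count at the top; coloured lines are the best-matching stretch and grey lines a second stretch elsewhere in the copy. Grey lines near the 3′ end of RN7SL1 start at RN7SL602P, ranked 64, and go on below it, and most 7SK rows stop near base 239.

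The 7SK rows had a different shape. RN7SK, at 357829, was 63.1 times as high as the next row, RN7SKP173, at 5670. RN7SKP180 followed with 3894, RN7SKP255 with 2121 and RN7SKP48 with 1737. The lowest rows were RN7SKP25 (33.9), RN7SKP76 (31.6) and RN7SKP19 (29.0). The locus of RN7SK is annotated in GENCODE a second time, under the name 7SK, on nearly the same bases. That second identifier has no row here, and whether reads of the locus were divided between the 2 identifiers was not tested. All 7SK rows other than RN7SK together held 6.78% of the 7SK sum, against 26.2% for the 7SL copies.

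The 7SK copies stopped at a common point. Of the 56 rows 43 matched RN7SK to a base after 230 and by 250, and 22 of them stopped at base 238 or 239. The annotated 7SK copies share this point with the listed rows, since 105 of all 301 stopped at base 238 or 239. The 43 rows had a median of 105, and the 11 that matched beyond base 300 had a median of 456, or 359 for the 10 without RN7SK. In 7SK it was the long copies that stood higher, the reverse of the order between the 18 partial and the 144 long 7SL rows. Even so, the 3 highest copies, RN7SKP173, RN7SKP180 and RN7SKP255, all belong to the shorter kind. The 20 bases after the match held a median of 7 A in the shorter and 14 A in the long copies.

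**Figure D4:**
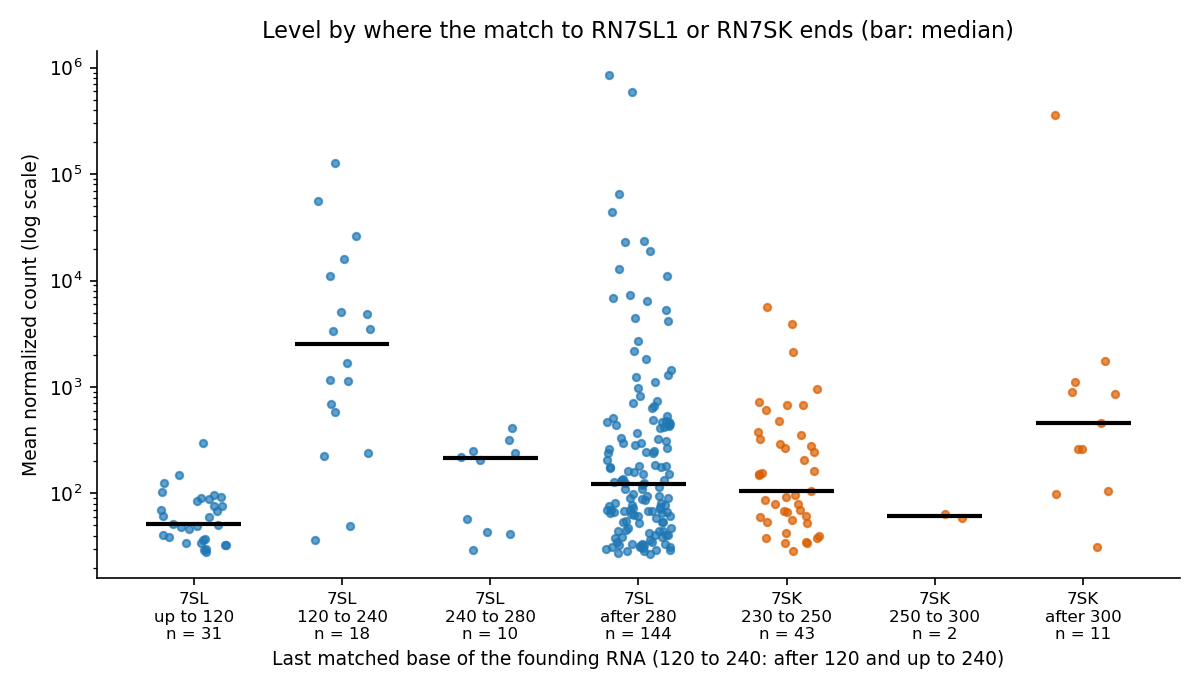
Mean normalized count (vertical axis, log scale) of 7SL rows (blue) and 7SK rows (orange) grouped by the last base of RN7SL1 or RN7SK that they match (horizontal axis); each point is 1 row and each black bar the median of its group. The 18 7SL rows that stop after base 120 and by base 240 have the highest median, 2531, and the 31 that stop by base 120 the lowest, 52.0.

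Identity to RN7SK within the aligned stretch hardly ordered the 7SK rows. The rank correlation of identity with level over the 56 rows was 0.06, and without RN7SK it was 0.003 over 55. Counting identical bases over the whole of RN7SK gave 0.25, close to the 0.27 of the same measure in 7SL. The 26 rows at 90% identity or above, RN7SK included, had a median of 106 and the 27 from 85% to 90% had a median of 156. The copies that shared 10% or more of their windows with RN7SK numbered 9 and had a median of 105, against 151 for the 46 other copies, which shared fewer or none. RN7SKP255, with 98.3% identity and 37.1% of its windows in RN7SK, had 2121, whereas RN7SKP173, with 89.2% and 5.61%, had 5670. Whether 7SL and 7SK differ in this respect was not tested.

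The sequence upstream of each copy was compared with that of RN7SL1 or RN7SK position by position, without gaps. RNA polymerase III needs promoter elements upstream of both the 7SL and the 7SK gene. In the 60 bases before the start, the 200 7SL copies matched RN7SL1 at 10.0% to 36.7% of positions, with a median of 23.3%. The 55 7SK copies matched RN7SK at 13.3% to 41.7%, again with a median of 23.3%. Even the founding gene RN7SL2 matched RN7SL1 at only 33.3%, so a low match does not mark a copy as lacking a promoter. The motif GTTCNNNNC, the form of a B box of internal RNA polymerase III promoters, searched on the RNA's strand, was in 121 of the 203 listed 7SL rows (59.6%) and in 357 of all 680 annotated ones (52.5%). Listed rows with it had a median of 137, and those without it had 70.5. Most of the 31 rows whose match ended by base 120, with a median of 52.0, lack the motif. Motif and form of the copy are therefore not separated in these medians. A missing match says only that these letters are not there. A run of TTTT, the stop signal of RNA polymerase III, was looked for on the same strand in the last 10 bases of each gene and the 20 after it. RN7SL1, RN7SL2, RN7SL3, RN7SK, RNY1, RNY3 and RNY4 all had it, whereas it was found in only 20 of the 203 7SL rows (9.85%) and 20 of the 56 7SK rows (35.7%). RN7SL4P, RN7SL448P, RN7SL752P and RN7SL555P, the 7SL copies of highest count, had no match. Among all annotated copies the shares were 13.4% in 7SL and 26.2% in 7SK, and the listed 7SL rows with the run had a median of 121 against 103 without it, while in 7SK the order was the other way, 81.7 against 159.

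Many copies lie inside other genes, where reads of the copy and of the host's unspliced transcript cannot be told apart. Of the 203 7SL rows 93 lay wholly inside a gene of the same strand (45.8%, against 45.0% of all annotated 7SL copies), 42 opposite to a gene only and 68 outside. Their medians were 110, 86.5 and 117. For 7SK the counts were 20, 14 and 22, with medians of 155, 180 and 102. Over all 7SL rows the medians by place were thus closer together than in the partial copies above, and in 7SK the copies opposite to a gene had the highest median. The listed rows were spread over these places much as all annotated copies are. Few copies overlapped an exon of the same strand, 4 in 7SL and 5 in 7SK. RN7SKP118 (1104), in an exon of the potassium channel domain gene KCTD19, was the highest of these 7SK rows.

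Levels of copies and hosts were compared per kilobase, with the host's length taken over all its exons. For 77 copies the host of the same strand had a row of its own. No row lies below a level of 26.7, and the short listed copies all stood at 87.1 per kilobase or more. Of the 77 hosts, which have far longer exons, 36 stood below that. How many copies exceed their host is therefore largely set by which rows are listed and is not read as a result. The ratio of copy to host ran from 0.101 to 193472. RN7SL448P had 219654 per kilobase and its host BCAS3, a cytoskeletal regulator, had 23.6. RN7SL473P had 78229 per kilobase, and MCL1, an antiapoptotic BCL2 family gene on the same strand, had 616. RN7SKP173 had 17999 and its host ACTR5, an actin-related protein of a chromatin remodelling complex, had 116, while RN7SKP180 had 11801 and its host SLC39A11, a zinc transporter, had 38.7. The 4 copies were thus well above the exons of their hosts. The rank correlation of copy and host level per kilobase over the 77 pairs was -0.002, a description over pairs that share libraries. Reads from introns of the host were not analysed here. At the other extreme RN7SL775P had 87.1 per kilobase inside MPRIP, a myosin phosphatase interacting protein gene, at 859.

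**Figure D5:**
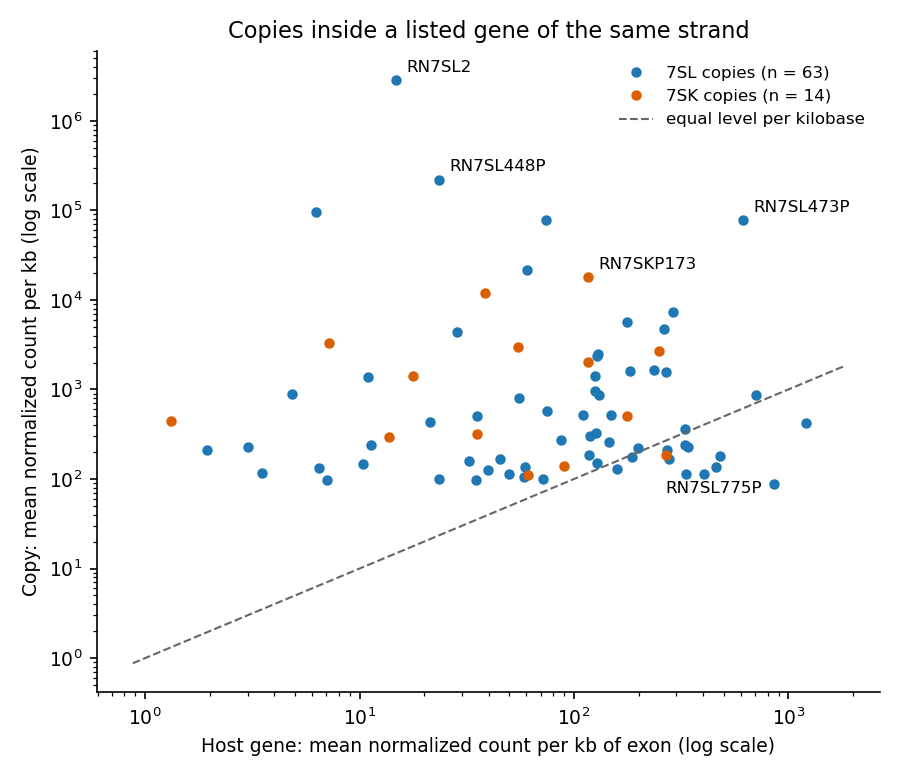
Mean normalized count per kilobase of each copy (vertical axis, log scale) against that of the gene of the same strand around it, per kilobase of exon (horizontal axis, log scale), for the 63 7SL and 14 7SK copies whose host has a row; each point is 1 copy and the dashed line marks equal levels. No listed copy stands below 87.1 per kilobase, so every copy inside a host below that level lies above the line. RN7SL2 and RN7SL448P are the highest.

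The Y RNA class was small and its order clear in size. RNY3 had a mean normalized count of 5300, RNY4 2179, RNY1 1139 and RNY3P1 37.2. RNY3 was thus 2.43 times as high as RNY4, 4.65 times as high as RNY1 and 142 times as high as RNY3P1, and without replicates no error stands behind these ratios. RNY1, RNY3 and RNY4 lie within 23934 bases of each other on chromosome 7, outside other annotated genes. RNY5 was not analysed here. Per kilobase the order stayed the same, with 51957 for RNY3, 22702 for RNY4, 10082 for RNY1 and 365 for RNY3P1. RNY3P1 lies inside DMGDH, a mitochondrial dehydrogenase gene, on the same strand. In the reference, 63 of 812 annotated Y RNA copies (7.76%) hold the stretch GGTCCGA in their first 20 bases. All 4 rows share most of their 31-base windows with transcripts of other annotated genes, with a median of 93.0%, so reads of other Y RNA copies could be counted with them or the reverse.

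The 3 founding families differed widely in level. RN7SL2 was 162 times and RN7SK 67.5 times as high as RNY3 in mean normalized count. Per kilobase RN7SL2 had 2865608, RN7SK 1090942 and RNY3 51957, against a median of 88.7 over all rows. No replicate error stands behind these ratios. RNY3 is 102 bases long against 300 for RN7SL2 and 328 for RN7SK. How well RNAs of such different lengths entered the libraries was not tested, so the ratios are of counts and not of molecules in the cell.

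The genes of the proteins that these RNAs work with all had a row. All 8 genes of the signal recognition particle and its receptor had a row, with a median of 362 per kilobase. SRPRA, a subunit of the receptor, was highest at 1021, and SRP19, which helps to assemble the particle, was lowest at 55.3. SRP14, which binds the Alu domain of 7SL RNA, had 1017, so that RN7SL2 stood 2818 times above it per kilobase. The 7 genes of the 7SK particle and P-TEFb had a median of 100, from CCNT2, a cyclin of P-TEFb, at 39.1 to CDK9, its kinase, at 617. LARP7, which protects the 3′ end of 7SK RNA, had 72.8 per kilobase against 1090942 for RN7SK. These orders depend on exon length, taken over all annotated exons. By mean normalized count SRPRA and CDK9 were still highest, but the lowest genes of the lists were others, at 555 and 133.

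The 9 Y RNA partners had a median of 347 per kilobase. YBX1, an RNA and DNA binding protein, was highest at 6141 and PARN, a deadenylase that trims RNA ends, was lowest at 36.0. The gene of Ro60 itself (TROVE2 in the table) had 107, and SSB, which encodes La, had 192. For transcription by RNA polymerase III, all 28 genes had a row, with a median of 151 per kilobase. MAF1, the repressor of the polymerase, was highest at 1111, and POLR3F, a subunit of the polymerase, was lowest at 34.6. By mean normalized count other genes of this list were highest, at 3377, and lowest, at 164. Across these lists RN7SL2, RN7SK and RNY3 stood far above the messenger RNAs of their partner proteins on the same scale. The typical 7SL and 7SK row was much lower. The median 7SL row had 367 per kilobase, and the signal recognition particle genes had a median of 362. The median 7SK row had 433, and the 7SK particle genes had a median of 100. No listed copy stands below 87.1 per kilobase, whereas the partner genes, with far longer exons, can. How these medians compare is therefore largely set by which rows are listed and is not read as a result.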

How the data were processed

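Total RNA from 6 MDA-MB-231 samples (shCTRL, shRBMS3-B3 and shRBMS3-C3, 2 each) was sequenced with a stranded total RNA kit. The submitters' processing notes name Salmon, DESeq2 and build hg38, without roles or versions; how reads matching several copies were divided, and the strand setting, are not given in the sources used here. The authors deposited 1 table with, for each gene, a mean normalized count (a signal averaged over libraries, which are not named), and their own comparison of knockdown with control: log2 fold change, standard error, test statistic, p-value and adjusted p-value. Those 5 columns were not used. No test was made, because the column used has no replicates, and no depth or error can be given.

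Rows were joined by Ensembl identifier to GENCODE 44 (15829 of 15917 matched). Copies were aligned locally to RN7SL1, to RN7SK, or to the nearest of RNY1, RNY3 and RNY4 (Biopython 1.88; match 1, mismatch -1, gap opening -3, gap extension -1). Identity was taken over all aligned positions, gap positions included. A second stretch needed a score of 20. The alignment was tested on simulated copies. Windows were 31 bases long. Kilobases are of joined exons. Correlations are Spearman's (SciPy 1.17.1). A copy was inside a gene if it lay wholly within it; small RNA genes and other copies were not counted as hosts.

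Named genes were RBMS3, the founding genes, the 5 highest and 3 lowest rows of each class, the 3 7SL rows of highest and lowest identity, their hosts, and the highest and lowest gene of each partner list per kilobase; RN7SL602P, RN7SL674P, RN7SL473P, RN7SL555P, RN7SKP118, RN7SL775P, SRP14, LARP7, TROVE2 and SSB were named after their values were seen. The end groups (last matched base 120, 240 and 280 in 7SL; 230, 250 and 300 in 7SK) and the limit of 10% of windows were also set after seeing the values. Members and lists were chosen with earlier results of these data known. Some sequences are not reported here.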

Additional observations from a re-analysis of the deposited data

How the results depend on the processing

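Counts of rows per class were the same by distinct symbols; by annotation name they were 203, 58 and 5 for 7SL, 7SK and Y RNA. The medians of 7SL, 7SK and Y RNA were 367, 433 and 16392 per kilobase; 1429, 880 and 2179 over rows above the table's median; and 101, 149 and 1139 without the leading row. Their shares of the table's sum were 5.28%, 0.120% and 0.0152% without the leading row, and 24.8%, 4.41% and 0.319% per kilobase. The rank correlation of identity with level over 7SL rows (0.41) was positive in each setting run: 0.27 with identical bases over the whole of RN7SL1, 0.27 in rows covering at least 80% of it, 0.50 outside genes of the same strand and, in settings chosen after seeing the data, 0.38 without the founding genes and 0.31 in the 108 rows with no founding window. If only listed genes count as hosts, 110 7SL rows lay outside, 9 7SK rows lay opposite to a gene and 0 Y RNA rows lay inside one of the same strand.

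No paired analysis was possible because values per library were not analysed here. For the same reason other normalizations, filters on low counts, leaving out each replicate and each hairpin alone were not run. Copies without a row, whether under the lowest level in the table (26.7) or missing for another reason, were not analysed here. Reads divided among near-identical copies limit each single level.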

Other observations

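In the table, 3 further rows belong to these families by their GENCODE name but carry another symbol, and were not counted as members. RF00019, a Y RNA copy with 95.8% identity to RNY3 that lies opposite to a gene, had a mean normalized count of 108, above RNY3P1. RF00100, a 7SK copy that matches bases 141 to 328 of RN7SK with 93.6% identity outside other genes, had 97.5. CTD-2270L9.3, named RN7SKP23 in GENCODE, matches bases 211 to 240 only and had 28.1.

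Other RNA polymerase III and abundant noncoding transcripts stood beside the members at the top of the table. RNA5S1, a 5S ribosomal RNA gene, ranked 6 with 212003, and RNU1-1, the U1 spliceosomal RNA, which RNA polymerase II makes, ranked 9 with 129887. ACTB, cytoskeletal actin, was the highest protein-coding gene at rank 8 with 138775. These genes were chosen after their values were seen.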
